A study of Mus musculus with 6 samples.

Results

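The granins and the enzymes that process prohormones were followed here through 10 genes of the adult mouse brain: Chga, Chgb, Scg2, Scg3, Scg5, Vgf, Pcsk1, Pcsk2, Cpe and Pcsk1n. They were picked by gene symbol from the 53801 genes of the count table, and all 10 were among the 23975 genes tested. RNA-seq compared a frozen hemisphere from each of 3 Bahd1-WT mice (Bahd1+/+) with that from each of 3 Bahd1-KO mice (Bahd1-/-), all C57BL/6 adults of about 70 weeks. Bahd1 encodes a chromatin protein that takes part in gene silencing, and the Bahd1-KO mice came from crosses of heterozygous (Bahd1-Het1) parents. The labels name no treatment besides the knockout, and the tissue was the bulk of a hemisphere rather than a dissected region. In such bulk samples, fewer cells of a type and less RNA per cell cannot be told apart.

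Neurons and endocrine cells store peptides in dense core vesicles and release them on demand. The peptides are made as long prohormones, which are sorted together with granins, acidic proteins that aggregate in the trans-Golgi network and help to build the vesicle. Inside the vesicle, the prohormone convertases encoded by Pcsk1 and Pcsk2 cut the prohormone after pairs of basic residues. The carboxypeptidase encoded by Cpe then trims these residues from the new ends. Scg5 encodes a chaperone that the Pcsk2 enzyme needs to become active, and Pcsk1n encodes proSAAS, which can inhibit the Pcsk1 enzyme. In brain, the family is found in neurons across many regions and is abundant in hypothalamic peptide neurons.

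Library totals ranged from 42297150 to 93557948 counts. Counts of Bahd1 were 1383, 844 and 1099 in the Bahd1-WT libraries 1, 2 and 3 and fell to 0, 14 and 1 in the Bahd1-KO libraries (log2 fold change -7.67, adjusted p = 0.0135), which is what the labels call for. Bahd1-KO replicate 2 stood apart from the other libraries. Genes of the top decile in GC content had a median 1.44 above the mean of the 6 libraries on the log2 scale in that library, against -0.90 to 0.53 in the others, and genes of the bottom decile had a median of -0.72 against -0.24 to 0.37. The 3 Bahd1-WT libraries lay between -0.90 and -0.37 for GC-rich genes and the Bahd1-KO libraries at -0.04, 1.44 and 0.53, so this GC trend ran with genotype, and each result below is given with all samples, without Bahd1-KO replicate 2, or with an offset per library for GC content and transcript length, as needed. Levels are CPM, counts scaled to a common library size after TMM normalisation. Fold changes are Bahd1-KO over Bahd1-WT. A differentially expressed gene (DEG) changed at least 2-fold with an adjusted p below 0.05 in edgeR's quasi-likelihood test.

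None of the 10 genes was a DEG, against 0.00834% of all genes tested (2 of 23975). At an unadjusted p under 0.05, Chga, Vgf and Pcsk1n were higher in Bahd1-KO (3 of 10, against 19.9% of all genes tested) and Scg3 was lower (1 of 10, against 12%). At an adjusted p under 0.1, the same 3 genes were higher (against 14.7%), and 0 of 10 were lower (against 4.77%). Values of the genotypes did not overlap for 4 genes higher in Bahd1-KO, Chga, Chgb, Vgf and Pcsk1n (against 20.6%), and for Scg3, which was lower (against 19.3%). The call of the 3 higher genes depended on the setting. All 3 became DEGs (3 of 10) with total counts as the scaling (against 8.37% of genes tested), with a filter of at least 1 count in sum (against 8.45%), or without Bahd1-KO replicate 1 (against 16.8%). DESeq2's Wald test called Chga and Vgf (2 of 10) without the normal prior (against 11.5%) and with it (against 10.5%, or 9.61% counting higher genes alone), and gave no adjusted p for Pcsk1n.

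**Figure D1:**
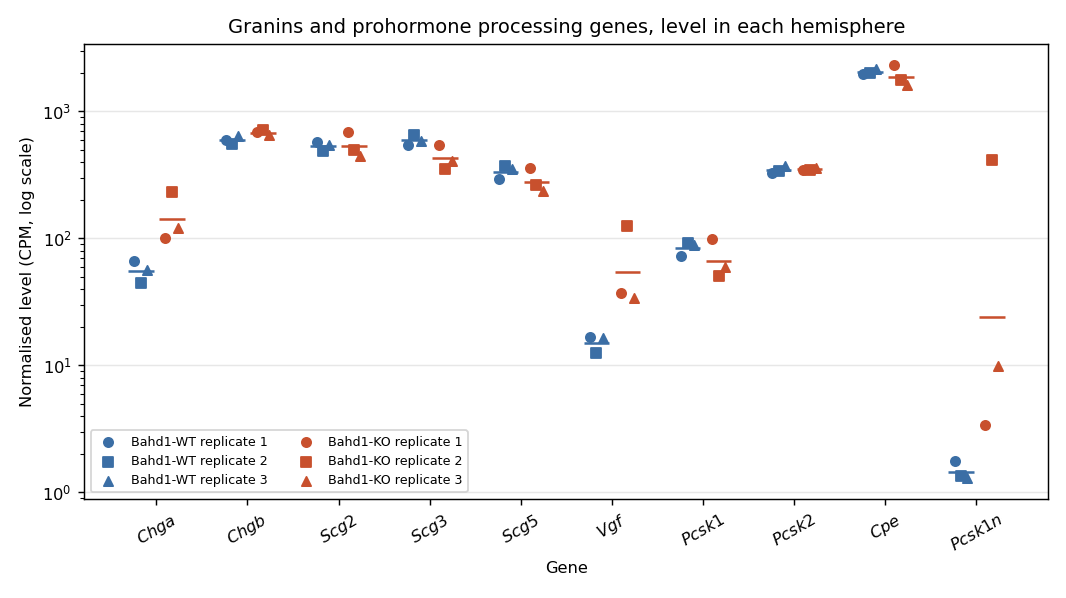
Level of each of the 10 genes in each of the 6 hemispheres, in CPM on a log axis, with Bahd1-WT in blue and Bahd1-KO in orange, a symbol for each replicate and a bar at the geometric mean of the genotype. Pcsk1n lies between 1.3 and 9.85 CPM in 5 libraries and at 413 CPM in Bahd1-KO replicate 2, whereas Pcsk2 lies between 326 and 372 CPM in all 6.

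Among the granins, Chga (ENSMUSG00000021194, chr12:102554969-102565028, plus strand, GRCm38) encodes chromogranin A, the protein best known as a serum marker of neuroendocrine tumours. Chga was at 66.8, 44.3 and 56 CPM in Bahd1-WT replicates 1, 2 and 3 and at 101, 233 and 120 CPM in the Bahd1-KO replicates. The lowest Bahd1-KO sample was above the highest Bahd1-WT sample, and Bahd1-KO replicate 2 was 1.95-fold above the next library. The mean was 151 ± 71 CPM in Bahd1-KO against 55.7 ± 11 CPM in Bahd1-WT (SD, n = 3 each), a log2 fold change of 1.44 (SE 0.32, 95% interval 0.72 to 2.16, edgeR adjusted p = 0.0634). Without Bahd1-KO replicate 2 it was 0.99 (edgeR adjusted p = 0.0501). With the GC and length offset it was 0.19 (95% interval -0.00 to 0.38, edgeR adjusted p = 0.237), and the offset values of the genotypes still did not overlap, at 6.29 to 6.42 log2 CPM in Bahd1-WT and 6.50 to 6.63 log2 CPM in Bahd1-KO. With an offset on the GC content of the coding sequence, it was 0.37 (95% interval 0.14 to 0.61, edgeR adjusted p = 0.105).

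Chgb encodes chromogranin B, a close relative of chromogranin A in structure and location. It was at 595, 553 and 640 CPM in Bahd1-WT and at 684, 709 and 651 CPM in Bahd1-KO. All Bahd1-KO samples were above all Bahd1-WT samples by a narrow margin, with means of 681 ± 29 and 596 ± 43 CPM. The log2 fold change was 0.19 (95% interval -0.13 to 0.52, edgeR adjusted p = 0.362), so the difference did not pass the test, and with the GC and length offset its sign turned (-0.35, adjusted p = 0.179). Because Chga was higher in Bahd1-KO by more than Chgb, the ratio of Chgb to Chga per exon length was 8.96, 12.6 and 11.5 in Bahd1-WT and 6.8, 3.06 and 5.47 in Bahd1-KO. The ratios of the genotypes did not overlap, and no test was made on them.

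Scg2 and Scg3 encode secretogranins, the former a precursor of the peptide secretoneurin and the latter a protein that tethers chromogranin A to cholesterol-rich membrane. Scg2 was at 575, 489 and 543 CPM in Bahd1-WT and at 689, 498 and 447 CPM in Bahd1-KO. Both the highest and the lowest of the 6 values came from Bahd1-KO mice, and the log2 fold change was 0.02 (95% interval -0.41 to 0.46, edgeR adjusted p = 0.944). Scg3 was at 548, 646 and 579 CPM in Bahd1-WT and at 545, 354 and 406 CPM in Bahd1-KO. Its highest Bahd1-KO value lay just below its lowest Bahd1-WT value, while the other Bahd1-KO values were well below. The means were 591 ± 50 CPM in Bahd1-WT and 435 ± 99 CPM in Bahd1-KO (SD, n = 3 each). The log2 fold change of Scg3 was -0.44 (95% interval -0.87 to -0.01, edgeR adjusted p = 0.149), and it was -0.30 with the offset (edgeR adjusted p = 0.153) and -0.32 without Bahd1-KO replicate 2. With the coding GC offset it was -0.13 (edgeR adjusted p = 0.33), and without Bahd1-KO replicate 1 it was -0.61 (edgeR adjusted p = 0.0237).

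Vgf (ENSMUSG00000037428, chr5:137026392-137033351, plus strand, GRCm38) encodes a granin-like precursor, induced by nerve growth factor and by neuronal activity, that is cut into several secreted peptides. Vgf was at 16.6, 12.5 and 16.5 CPM in Bahd1-WT and at 37.4, 125 and 34 CPM in Bahd1-KO. Bahd1-KO replicate 2 was 3.34-fold above the next library, and the other Bahd1-KO samples were close to each other and above every Bahd1-WT sample. The mean was 65.5 ± 52 CPM in Bahd1-KO against 15.2 ± 2.3 CPM in Bahd1-WT. The log2 fold change was 2.11 (SE 0.48, 95% interval 1.02 to 3.20, edgeR adjusted p = 0.0634), and 1.23 without Bahd1-KO replicate 2 (adjusted p = 0.0501). With the GC and length offset it was 0.23 (adjusted p = 0.517), and the genotypes overlapped, at 4.55, 4.75 and 4.92 log2 CPM in Bahd1-WT and 5.29, 5.03 and 4.49 log2 CPM in Bahd1-KO. With the offset built on the GC content of the coding sequence instead, an alternative added after the data were seen, it was 1.07 (adjusted p = 0.105).

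For Pcsk1, Pcsk2, Scg5 and Cpe, values of the genotypes overlapped. Pcsk1 was at 73.1, 92.4 and 87.9 CPM in Bahd1-WT and at 99.7, 50.7 and 59.3 CPM in Bahd1-KO, so that Bahd1-KO samples held both the highest and the lowest values. Its log2 fold change was -0.27 (95% interval -0.85 to 0.31, edgeR adjusted p = 0.471), and 0.22 with the offset (adjusted p = 0.391). It rested on single libraries, at -0.59 without Bahd1-KO replicate 1 (edgeR adjusted p = 0.0353) and -0.10 without Bahd1-KO replicate 2. Pcsk2 was the steadiest of the 10 genes, at 326, 338 and 372 CPM in Bahd1-WT and 343, 344 and 359 CPM in Bahd1-KO, with a highest value only 1.14-fold above the lowest. Its log2 fold change was 0.01 (95% interval -0.30 to 0.33, edgeR adjusted p = 0.952). The antisense gene Pcsk2os1 overlaps Pcsk2 and had 327 to 690 counts, against at least 14908 for Pcsk2.

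Scg5, the chaperone gene of the Pcsk2 enzyme, was at 293, 368 and 350 CPM in Bahd1-WT and at 356, 261 and 235 CPM in Bahd1-KO. Its genotypes overlapped, with a log2 fold change of -0.25 (95% interval -0.69 to 0.19, edgeR adjusted p = 0.39), and -0.54 with the coding GC offset (adjusted p = 0.115). Leaving out a sample gave -0.41 without Bahd1-KO replicate 1 (edgeR adjusted p = 0.0954) to -0.12 without Bahd1-KO replicate 3. The ratio of Scg5 to Pcsk2 per exon length was 4.92 ± 0.5 in Bahd1-WT and 4.12 ± 1 in Bahd1-KO and also overlapped. Cpe was at 1984, 1991 and 2145 CPM in Bahd1-WT and at 2332, 1753 and 1613 CPM in Bahd1-KO. The Bahd1-KO values of Cpe lay on both sides of the Bahd1-WT values, with a log2 fold change of -0.10 (95% interval -0.51 to 0.30, edgeR adjusted p = 0.709), and -0.46 with the coding GC offset (95% interval -0.89 to -0.04, adjusted p = 0.148). Scg5, Chgb and Pcsk2 share chromosome 2 with Bahd1, at distances of 5.07, 13.9 and 24.6 Mb from it.

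Pcsk1n (ENSMUSG00000039278, chrX:7919822-7924410, plus strand, GRCm38), the gene of the proSAAS inhibitor, had the largest spread of the 10 genes. Its counts were 162, 83 and 95 in the Bahd1-WT samples and 149, 39347 and 570 in the Bahd1-KO samples, or 1.77, 1.34 and 1.3 CPM against 3.42, 413 and 9.85 CPM. Bahd1-KO replicate 2 was 42-fold above the next library, and the other Bahd1-KO samples were above all Bahd1-WT samples. The log2 fold change was 6.59 (SE 1.69, 95% interval 2.75 to 10.43, edgeR adjusted p = 0.0638), and 2.18 without Bahd1-KO replicate 2 (adjusted p = 0.0501). With the GC and length offset it was 4.99 (edgeR adjusted p = 0.0979), and 1.42 with the offset and without that library (adjusted p = 0.151). The offset values were 1.16, 1.18 and 0.91 log2 CPM in Bahd1-WT and 1.77, 7.54 and 2.93 log2 CPM in Bahd1-KO, and the genotypes again did not overlap. Per exon length, the ratio of Pcsk1n to its target Pcsk1 was 0.0619, 0.0372 and 0.0377 in Bahd1-WT and 0.0877, 20.8 and 0.424 in Bahd1-KO. The ratio in Bahd1-KO replicate 2 restates the high Pcsk1n value of that library, and no GC offset was applied to it.

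A level that high above all other libraries was rare in Bahd1-KO replicate 2. Of the 14728 genes with at least 1 CPM in that library, 15 (0.102%) were at least 10-fold above every other library, and Pcsk1n ranked 5 among them, while 1117 (7.58%) were at least 2-fold above. The 15 genes included Scand1, Ccdc85b, Prr7, Nrtn and the oxytocin gene Oxt, and the 9 with a coding sequence had a median coding GC content of 70.7%, against 52.9% over expressed genes. The part of GC content in the Pcsk1n value was not tested beyond the offsets given here.

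**Figure D2:**
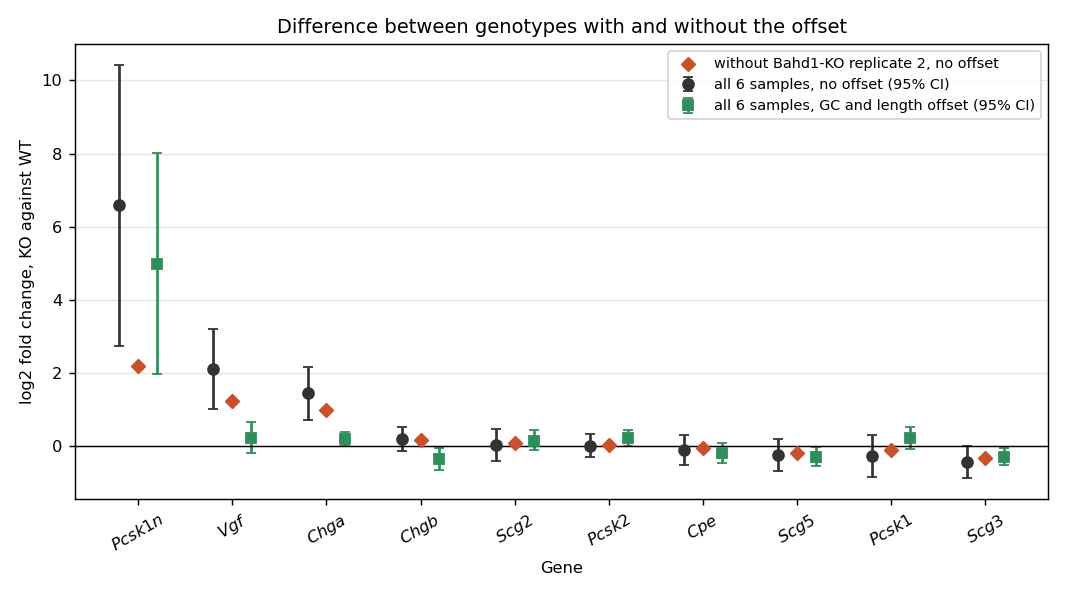
Log2 fold change of each gene, Bahd1-KO over Bahd1-WT, with all 6 samples (black circles), with the GC and length offset (green squares), both with 95% intervals, and without Bahd1-KO replicate 2 (orange diamonds). Chga and Vgf move from 1.44 and 2.11 to 0.19 and 0.23 with the offset, whereas Pcsk1n moves from 6.59 to 4.99.

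The sequences of the 10 genes differ widely in GC content, and the 3 genes that were higher in Bahd1-KO were the richest in G and C in their coding part. The coding GC content was 72.1% for Pcsk1n (percentile 99.7 among 12631 expressed coding genes), 65.6% for Vgf (percentile 98.1) and 59.3% for Chga (percentile 85.6), against 44.9% for Scg3 and 45.8% for Pcsk1. To show this at the level of bases, the middle 100 bases of the coding sequence are printed for Pcsk1n and Vgf, and for Scg2 and Chgb as genes with log2 fold changes near 0, each from a single coding exon of the GENCODE transcripts of GRCm38. Capitals mark G and C, which number 73 for Pcsk1n (chrX:7922271-7922370, plus strand), 67 for Vgf (chr5:137031861-137031960, plus strand), 48 for Scg2 (chr1:79436030-79436129, minus strand) and 47 for Chgb (chr2:132793105-132793204, plus strand).
Pcsk1n: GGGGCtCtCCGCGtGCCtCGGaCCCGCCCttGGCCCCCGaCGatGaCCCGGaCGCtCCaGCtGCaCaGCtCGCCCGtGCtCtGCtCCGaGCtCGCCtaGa
Vgf: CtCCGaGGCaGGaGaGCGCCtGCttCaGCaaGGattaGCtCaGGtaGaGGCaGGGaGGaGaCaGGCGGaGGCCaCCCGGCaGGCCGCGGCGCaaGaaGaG
Scg2: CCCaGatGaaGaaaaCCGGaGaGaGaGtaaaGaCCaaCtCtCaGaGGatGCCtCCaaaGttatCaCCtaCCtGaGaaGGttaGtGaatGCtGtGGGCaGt
Chgb: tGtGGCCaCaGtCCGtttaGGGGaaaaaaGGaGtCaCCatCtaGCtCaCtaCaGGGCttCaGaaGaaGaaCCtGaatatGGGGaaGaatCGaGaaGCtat
The Pcsk1n and Vgf stretches hold long runs of capitals, whereas those of Scg2 and Chgb are broken up by a and t.

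Over all of the coding sequence, 68.4% of the 100-base windows of Pcsk1n and 28.4% of those of Vgf had a GC content of 70% or more, against 7.3% for Cpe and 0 for the other 7 genes. Across the 10 genes, Spearman's rho of the log2 fold change was 0.84 with transcript GC content, 0.85 with coding GC content and -0.03 with exon length. After the GC and length offset, the rho was 0.27 with transcript GC content and 0.56 with coding GC content, and with the share of windows at a GC content of 70% or more it was 0.57 both before and after. These rank correlations describe 10 genes measured in the same 6 libraries. Pcsk1n was an exception in its size: its whole transcript had a GC content of 57.3%, below that of Chga at 58.4%, while its coding sequence exceeded all the others. With the offset on coding GC content, its log2 fold change was 6.16, and 2.21 without Bahd1-KO replicate 2. With the GC and length offset, 1 of the 10 genes was higher at an unadjusted p under 0.05, Pcsk1n (against 9.83% of the genes fitted), and 3 were lower, Chgb, Scg3 and Scg5 (against 11.6%). With the offset on coding GC content the set differed: Chga, Vgf and Pcsk1n were higher (3 of 10, against 14.9%) and Scg5 and Cpe were lower (2 of 10, against 14.4%).

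**Figure D3:**
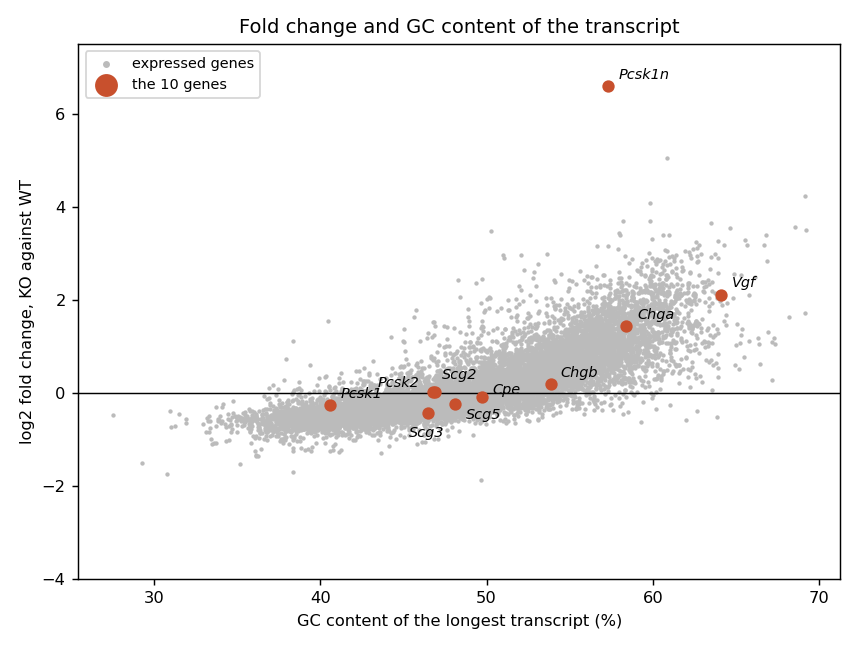
GC content of the longest transcript in percent against the log2 fold change, Bahd1-KO over Bahd1-WT, for 13283 expressed genes (grey) and the 10 genes (orange, labelled). Fold changes climb with GC content among all genes, Chga and Vgf lie within that cloud, and Pcsk1n at 6.59 lies above it.

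Levels between genes were compared per exon length, as TPM (counts per kilobase, scaled to a common sum) over the union of annotated exons. In Bahd1-WT, Cpe had a mean of 2521 ± 203 TPM and ranked 14 among genes with an annotated length. Chgb, Scg3, Scg5 and Scg2 followed at 702 ± 80, 694 ± 35, 691 ± 71 and 688 ± 81 TPM, and neighbours in this order overlapped over the samples. Pcsk2 at 141 ± 14 TPM stood apart from both neighbours, Chga at 65.4 ± 15 TPM overlapped with Pcsk1 at 48.5 ± 5.1 TPM, and Vgf at 16.6 ± 3.2 TPM and Pcsk1n at 2.16 ± 0.42 TPM stood apart. The highest and lowest of these means, of Cpe and Pcsk1n, were 1166-fold apart, in libraries that were low for GC-rich genes such as Pcsk1n, and the highest and lowest means in Bahd1-KO were 58.2-fold apart. In Bahd1-KO, Cpe again came first, at 2558 ± 516 TPM, followed by Chgb at 873 ± 6.3 TPM, which overlapped with Scg2. Pcsk1n moved from the last place to rank 6 in the Bahd1-KO mean (219 ± 360 TPM), which rests on replicate 2 at 634 TPM beside 5.51 and 16.4 TPM. With the longest transcript as the length, the order of the 4 genes after Cpe in Bahd1-WT changed, with means of 751 TPM for Scg5, 667 TPM for Scg3, 587 TPM for Chgb and 576 TPM for Scg2, and Pcsk2 was at 197 TPM.

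The 10 genes did not vary as a single group. Over the 6 samples, Pearson's r of log2 CPM was 0.98 between Chga and Vgf, 0.94 between Chga and Pcsk1n and 0.85 between Chga and Chgb. A second set moved with each other, with r of 0.92 between Scg5 and Pcsk1, 0.92 between Scg3 and Pcsk1, and 0.89 between Scg5 and Cpe. All r values were taken without the GC offset, and the sets differ in transcript GC content. It was 53.9% to 64.1% for Chga, Vgf, Pcsk1n and Chgb, and 40.6% to 49.7% for Scg3, Scg5, Pcsk1 and Cpe. Likeness between members after the offset was not tested. Chga and Scg3 ran in opposite directions (r = -0.95), and Pcsk2 followed no other member (r from -0.29 to 0.34). These values share libraries and genotype, and close likeness was common: the gene most like Chga was Asl (r = 0.9997), and 2759 of 13282 expressed genes had an r above 0.95 with it. Vgf was most like Mrm3 (r = 0.9985), Pcsk1n most like Cptp (r = 0.9998), Scg3 most like Dhx40 (r = 0.9988) and Pcsk1 most like Dnajb6 (r = 0.9987). Scg5 was closest to Ptcd2, Cpe to Fam151b and Chgb to Kat8. Scg2 and Pcsk2 had few such genes, 10 and 4, and their nearest were Gpr83 (r = 0.9849) and Gpr176 (r = 0.9797).

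Promoters of 8 of the 10 genes were found in the RefSeq table of GRCm38.p6, and those of Vgf and Cpe were not in it. Many genes of regulated secretion are known to answer to cyclic AMP through the cyclic AMP response element (CRE), the letters TGACGTCA, which read the same on both strands. The full element stood within the 250 bases before the start of Chgb, Scg2 and Pcsk1 (3 of 8), against 1.55% of 32817 promoters. The 30 bases around each are printed because they mark the sequence feature these members share, with the element in capitals, for Chgb (chr2:132781559-132781588, plus strand), Scg2 (chr1:79440076-79440105, minus strand) and Pcsk1 (chr13:75089768-75089797, plus strand). The element began at base -72, -68 and -78 from the RefSeq start, and for Chgb and Scg2 the GENCODE gene begins further upstream, so that there it falls inside the annotated gene.
Chgb: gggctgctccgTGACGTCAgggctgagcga
Scg2: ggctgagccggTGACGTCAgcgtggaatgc
Pcsk1: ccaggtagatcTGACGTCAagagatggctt
The 3 genes that carry it had log2 fold changes of 0.19, 0.02 and -0.27, and none passed the test. Of the other promoters, that of Chga (chr12:102554691-102554940, plus strand) had a single TGACG, which all 3 full elements also contain and 17.7% of promoters hold on either strand, and 2 GC boxes (GGGCGG, in 32.7%). TGACG was in 7 of the 8 promoters and the GC box in 5 of 8. Both sets include genes whose unadjusted p was not under 0.05, and none of these genes was a DEG. That of Pcsk1n (chrX:7919572-7919821, plus strand) had 1 GC box and no TGACG. Both are shown because Chga and Pcsk1n were higher in all Bahd1-KO samples, with these letters in capitals.
Chga: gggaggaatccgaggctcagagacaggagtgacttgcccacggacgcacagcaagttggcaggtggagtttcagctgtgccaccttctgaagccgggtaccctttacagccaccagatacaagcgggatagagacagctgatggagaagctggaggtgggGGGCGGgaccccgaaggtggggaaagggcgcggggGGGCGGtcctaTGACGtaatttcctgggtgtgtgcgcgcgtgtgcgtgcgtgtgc
Pcsk1n: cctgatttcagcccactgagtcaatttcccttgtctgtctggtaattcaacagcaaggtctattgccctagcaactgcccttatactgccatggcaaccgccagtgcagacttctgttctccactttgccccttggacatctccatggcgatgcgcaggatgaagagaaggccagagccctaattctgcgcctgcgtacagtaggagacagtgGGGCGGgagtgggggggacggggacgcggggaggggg
The TATA box letters TATAAA, held by 12.4% of promoters, were in none of the 8.

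The other genes of the pathway were described by lists, none of which held a DEG in edgeR's test. The median log2 fold change of the 10 genes was 0.02, beside -0.06 over all genes tested. Among 7 other proprotein convertases, which cut precursors outside the dense core vesicle as well, 5 were higher at an unadjusted p under 0.05 and 0 lower (against 19.9% and 12% of all genes tested), with a median of 0.66. Furin, the convertase of the constitutive pathway, was at 9.7, 6.92 and 7.14 CPM in Bahd1-WT and at 11.3, 36.3 and 20.8 CPM in Bahd1-KO (log2 fold change 1.53, adjusted p = 0.0634). Pcsk4, the germ cell convertase, was low and was higher in Bahd1-KO only at the unadjusted threshold (1.74, edgeR unadjusted p = 0.00709, adjusted p = 0.0682). Mbtps1, which activates membrane-bound transcription factors, and Pcsk5 were at 0.29 and -0.03 and did not reach an unadjusted p under 0.05. With the offset the median of this list was -0.06, while Furin was at 0.64 (edgeR unadjusted p = 0.00503) and Pcsk4 at 0.15. In that fit, 1 of the 7 was higher (against 9.83%) and 0 lower (against 11.6%) at an unadjusted p under 0.05. No gene of the 4 other lists of the secretory pathway was a DEG with the offset.

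Among 12 other peptide maturation enzymes, 3 were higher at an unadjusted p under 0.05 (against 19.9%) and 0 lower (against 12%), with a median of 0.05. Pam, which amidates the ends of many neuropeptides, was at 200, 196 and 220 CPM in Bahd1-WT and 215, 160 and 179 CPM in Bahd1-KO (log2 fold change -0.16, adjusted p = 0.511). Ece1, an endothelin-converting enzyme, and Cpxm1, a carboxypeptidase relative, had the highest log2 fold changes by the rule for naming (1.04 and 1.35, adjusted p = 0.0697 and 0.0634), which were 0.36 and 0.46 with the offset. With the offset, 4 of the 12 were higher (against 9.83%) and 1 was lower (against 11.6%) at an unadjusted p under 0.05. Ece2 and the carboxypeptidase gene Cpd had the lowest (-0.38 and -0.33), and neither had an unadjusted p under 0.05.

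Of 21 genes of dense core vesicle assembly and release, 8 were higher (against 19.9%) and 2 lower (against 12%) at an unadjusted p under 0.05, with a median of -0.15. With the offset, 5 were higher (against 9.83%) and 2 lower (against 11.6%), with a median of 0.03. Ptprn encodes a transmembrane protein of the vesicle and was at 81.6, 47.9 and 51.5 CPM in Bahd1-WT and at 132, 479 and 226 CPM in Bahd1-KO. Its log2 fold change was 2.21 (SE 0.44, adjusted p = 0.0634), close to that of Vgf, and with the offset it was 0.82 (edgeR unadjusted p = 0.000116). Baiap3, a C2-domain protein of vesicle trafficking, was at 1.77 (adjusted p = 0.065), and 0.44 with the offset. Gnas, whose locus also encodes a granin-like protein, was at 0.62 (adjusted p = 0.0698), and its sign turned with the offset (-0.42). Rab27b and Rab2a, small GTPases of vesicle transport, had the lowest values, -0.59 and -0.45 (adjusted p = 0.132 and 0.172), which were 0.03 and -0.20 with the offset.

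Of 30 tested genes for prohormones, the substrates of this machinery, 10 were higher (against 19.9%) and 1 was lower (against 12%) at an unadjusted p under 0.05, with a median of 0.67. With the offset, 7 were higher (against 9.83%) and 2 lower (against 11.6%), with a median of 0.07. Kiss1 was listed and had too few counts to be tested. Pmch, the melanin-concentrating hormone precursor of the lateral hypothalamus, was at 42.2, 28.4 and 29.7 CPM in Bahd1-WT and 25, 16.1 and 19.1 CPM in Bahd1-KO (log2 fold change -0.74, adjusted p = 0.0821), with -0.49 after the offset. Avp, the vasopressin precursor, was at 0.973, 0.34 and 0.232 CPM against 0.988, 5.34 and 1.07 CPM (2.25, adjusted p = 0.0926), and -0.09 with the offset. The neurotensin gene Nts was at -0.33 (adjusted p = 0.402). Oxt and Ucn, named after their values were seen, were the highest of this list and lay at or below 0.0656 CPM in every Bahd1-WT library, with 2.49 and 0.966 CPM in Bahd1-KO replicate 2, so their folds are set by few counts in Bahd1-WT and by that library. Both are among the 10 higher genes and among the 7 higher with the offset. They passed the filter on low counts only through Bahd1-KO, so their place in those counts carries no weight. Pomc was at 1.87, 0.356 and 0.177 CPM in Bahd1-WT and at 0.069, 2.99 and 3.97 CPM in Bahd1-KO, and its genotypes overlapped (1.54, adjusted p = 0.343).

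Immediate early genes were looked at because Vgf answers to neuronal activity. Of 11, 7 were higher (against 19.9%) and 0 lower (against 12%) at an unadjusted p under 0.05, with a median of 0.91, which was -0.19 with the offset. Junb and Ier2 had the highest log2 fold changes, 3.24 and 1.82 (adjusted p = 0.0664 and 0.118), which were 1.06 and -0.04 with the offset. Junb was at 25.9 CPM in Bahd1-KO replicate 2 and at 0.954 to 3.3 CPM in the other libraries. Like Pcsk1n it was highest in that library, but it was not among the 15 genes at least 10-fold above every other library. Egr2 and Dusp1 had the lowest, -0.09 and 0.09, with an unadjusted p not under 0.05. With the offset they were at -0.31 and -0.51, the latter with an edgeR unadjusted p of 0.0015. In that fit, 1 of the 11 was higher (against 9.83%) and 2 lower (against 11.6%) at an unadjusted p under 0.05.

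**Figure D4:**
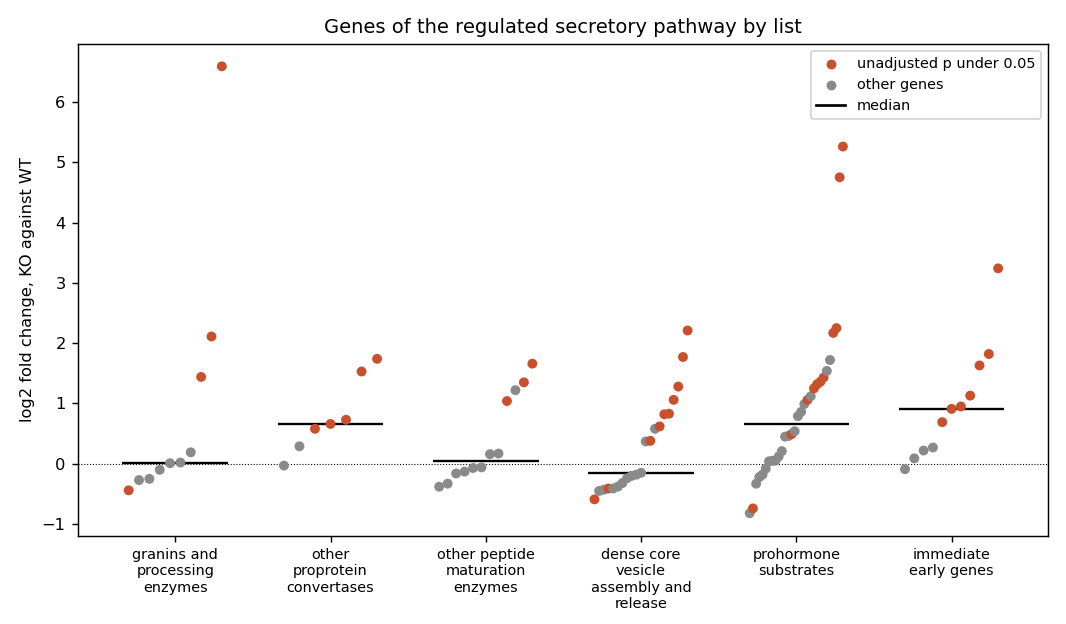
Log2 fold change, Bahd1-KO over Bahd1-WT, of every tested gene of the 10 and of the 5 other lists, with genes at an unadjusted p under 0.05 in orange, the others in grey and a bar at each list's median. Medians run from -0.15 for dense core vesicle genes to 0.91 for immediate early genes, and Pcsk1n at 6.59 is the highest point.

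Markers of other cell types were set beside these values, and their part in the results was not tested. The summed level of 9 neuron markers was 9022 to 10409 CPM in Bahd1-WT and 8172 to 9713 CPM in Bahd1-KO, and was lowest in Bahd1-KO replicate 2, the library with the highest Chga, Vgf and Pcsk1n. Of these 9 markers, 3 were higher and 1 lower at an unadjusted p under 0.05, against 19.9% and 12% of all genes tested, shares that apply to each list of markers given here. Pituitary tissue, which is rich in granins, was traced by 9 markers with a sum of 17.9 CPM in Bahd1-WT replicate 1, 39.1 CPM in Bahd1-KO replicate 3 and 0.0273 to 1.18 CPM in the other 4 libraries, led by Gh (579 and 1517 counts in the former pair) and Prl (829 and 627 counts). Chga and Pcsk1n were highest in Bahd1-KO replicate 2, where Gh had 1 count and Prl had 28, but where Lhb (30 counts) and Pitx1 (14 counts) were at their highest of the 6 libraries, while Pomc was above 1 CPM only in the pair with high pituitary markers and in Bahd1-KO replicate 2. Of 8 hypothalamus markers, 3 were higher and 2 lower at an unadjusted p under 0.05. Their sum was 34.5 to 51.8 CPM in Bahd1-WT and 25.6 to 33.8 CPM in Bahd1-KO, so it was lower in all Bahd1-KO samples. Pmch alone gave 28.4 to 42.2 CPM of the sum in Bahd1-WT and 16.1 to 25 CPM in Bahd1-KO, so the lower sum rests largely on that gene. Of the 8, 5 had a log2 fold change above 0, and the median was 1.02 (-0.17 with the offset). Red cell markers (4 of 5 higher at an unadjusted p under 0.05) summed to 10.8 to 15.9 CPM in Bahd1-WT and 15.1 to 92.6 CPM in Bahd1-KO. Choroid plexus markers (1 of 6 higher and 1 lower) summed to 292 to 385 CPM in Bahd1-WT and 468 to 1089 CPM in Bahd1-KO, and oligodendrocyte markers (3 of 7 higher and 1 lower) to 5216 to 6021 CPM and 5442 to 8363 CPM. All 3 sums were highest in Bahd1-KO replicate 2. The sums of the latter 2 lists do not describe most of their genes. Of the 6 choroid plexus markers, 4 had a log2 fold change below 0, with a median of -0.17 (-0.19 with the offset). Of the 7 oligodendrocyte markers, 4 were below 0, with a median of -0.08 (-0.01 with the offset). Astrocyte markers (4 of 8 higher and 1 lower) summed to 6356 to 6929 CPM in Bahd1-WT and 5465 to 6516 CPM in Bahd1-KO. Microglia markers (4 of 7 higher and 0 lower) summed to 161 to 221 and 209 to 261 CPM, with a median log2 fold change of 0.54 (-0.03 with the offset). Endothelial markers (1 of 6 higher and 0 lower) summed to 202 to 217 and 202 to 234 CPM. No marker of these lists was at 0 in all 6 libraries.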

How the data were processed

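The authors deposited raw counts per gene as whole numbers, 1 column per mouse, without normalization. By their methods, reads were trimmed with Cutadapt 1.11, aligned to GRCm38 with STAR 2.5.0a (supplementary methods also name Tophat2) and counted over exons of Ensembl genes by strand with featureCounts 1.4.6-p3. The replicates are separate mice.

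Genes whose counts summed to 10 or more were tested in edgeR 4.0.16 (R 4.3.3) with TMM normalization and a quasi-likelihood test on genotype, all 6 samples, and Benjamini-Hochberg adjustment over all genes tested. The offset was, in each library, fitted by regressing log2 CPM on natural splines of GC content (5 degrees of freedom) and log length (3) over 13283 genes. DESeq2 1.42.0 was an alternative. Lengths, GC content and coding sequences came from GENCODE M21 (GRCm38), promoters from RefSeq. Intervals are 95%. The scripts were tested on simulated counts.

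The 10 genes and the lists were chosen with earlier results of these data known. In each list, the 2 highest and 2 lowest genes with a mean of at least 1 CPM were named, plus Pam, Gnas, Ptprn and Furin, and for each of the 10 the expressed gene most correlated with it. Other genes of the library that stood apart were named after their values were seen. Same-numbered samples correlated at -0.644, -0.656 and -0.144, so numbers were not taken as pairs.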

Additional observations from a re-analysis of the deposited data

How the results depend on the processing

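The count of DEGs among the 10 genes was 0 and became 3 with total counts alone, 2 with DESeq2's Wald test, 2 with its normal prior and 3 with a filter of at least 1 count in sum. Leaving out a sample gave 0 to 3, with 3 without Bahd1-KO replicate 1. Of the 70 genes tested in the 4 other lists of the secretory pathway, 0 were DEGs, and 11, 16, 14 and 17 were under the same 4 settings, which called 8.37%, 11.5%, 10.5% and 8.45% of all genes. With a sample left out it was 0 to 20 (20 without Bahd1-KO replicate 1, which called 16.8% of all genes). The count at an unadjusted p under 0.05 was 4 (31.8% of all genes), then 2 in DESeq2 without and 2 with the prior (29%), 5 with the coding offset (29.3%), 4 with it without Bahd1-KO replicate 2 (19.3%), 1 with the GC and length offset without Bahd1-KO replicate 2 (14.2%), and 3 to 6 with a sample left out (18.3% to 43.2%). Signs turned for genes near 0. Chgb was -0.35 with the GC and length offset, -0.37 with the offset and replicate block, -0.22 with the offset without Bahd1-KO replicate 2 and -0.01 with the coding offset. Pcsk1 was 0.22, 0.21, 0.24 and 0.16 in these 4, and 0.20 with the coding offset without Bahd1-KO replicate 2. Pcsk2 was -0.13 with upper-quartile factors, -0.08 and -0.07 with the coding offset with and without that library, and -0.03 to 0.07 with a sample left out. Scg2 was -0.11 with upper-quartile factors and -0.15 to 0.15 with a sample left out, and Cpe -0.25 to 0.01. Upper-quartile factors shifted the median of all genes by -0.14. Causes were not tested. The numbers do not pair the samples. With them as a replicate block, 0 of 10 were DEGs, 3 had an unadjusted p under 0.05 (21.8% of all genes), and Pcsk1n, Vgf and Chga were at 3.62, 1.81 and 1.35. Pcsk1n was at 1.62 in DESeq2 with the normal prior, which shrinks fold changes. Robust shrinkage, the coding offset and the offset without Bahd1-KO replicate 2 were chosen after seeing the data. The 3 mice per genotype and a GC trend that runs with genotype limit every difference. Pcsk1n had only 83 to 570 counts outside Bahd1-KO replicate 2. Of these, Bahd1-WT replicate 1 had 162, at a library total of 92895774 beside 93557948 in Bahd1-KO replicate 2.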
